A study of Macaca mulatta with 20 samples.

Results

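Serpins are a family of proteins that mostly inhibit serine proteases. An inhibitory serpin offers a flexible reactive centre loop as bait, the protease cuts it, and the serpin then folds over and traps the protease in a stable complex, so that each molecule works only once. The family is divided into clades by letter. Most members of clade A are secreted plasma proteins made mainly by the liver, members of clade B stay mostly inside cells, and some members, such as the collagen chaperone SERPINH1, bind no protease. The roles below are those known from the human proteins.

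The members are all genes whose single symbol in the annotation of the array designs begins with SERPIN, which gave 34 of 21951 genes. The rhesus arrays held 26 of them among 14132 genes, the human arrays 31 among 19775, and both types 23. SERPINA11, SERPINB2 and SERPINB6 were read on the rhesus arrays only. SERPINA2, SERPINB1, SERPINB3, SERPINB4, SERPINB8, SERPINB10, SERPINF2 and the pseudogene SERPINB9P1 were read on the human arrays only. Clade A held 11 members and clade B held 14, clades F and I held 2 each, and clades C, D, E, G and H held 1 each. The members had 49 probe sets on each array type, of which the one brightest on average over the 10 arrays of a type stood for its gene. A further human probe set paired with both SERPINB3 and SERPINB4 was not used.

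RNA of rhesus macaques (Macaca mulatta) came from cerebral cortex, immortalized fibroblasts (connective tissue cells kept dividing in culture), pancreas, testis and thymus, and no treatment or altered genotype is named for any of them. Biotin-labelled cRNA of each source was hybridized to 2 rhesus arrays (Rhesus Macaque Genome Array) and 2 human arrays (Human Genome U133 Plus 2.0), 20 arrays in all, which the labels name as technical replicates. The spread behind each p-value is thus that between arrays, and the comparison is of 5 RNA preparations rather than of animals. How many animals gave this RNA, and their age and sex, was not stated in the sources used here. The deposited log2 expression values come 1 to a probe set on each array. Levels of different probe sets are not on 1 scale, so each gene was compared only with itself across sources. By limma, the mean of the other 4 sources was subtracted from that of each source, in 1 fit of 52766 rhesus and 1 fit of 54613 human probe sets, controls left out. A call needed both a Benjamini-Hochberg adjusted p under 0.05, over all probe sets of a type, and a log2 difference of 1 or more in either direction.

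Probe sets of bacterial transcripts left out of the spike-in mix averaged 2.13 to 3.12 on the rhesus arrays and 2.14 to 3.12 on the human arrays, and values in this range were taken as the floor. A log2 difference from a source at the floor is not an exact fold, and its SE covers only the spread between arrays. The human arrays carry probes designed for human sequences, and the paper reports that mismatches to rhesus transcripts lower their signal. A human value at the floor thus does not show that a gene was silent. How far mismatches lowered the values here was not tested. The pancreas arrays were the least repeatable pair, with an SD within the pair over all probe sets of 0.281 (rhesus) and 0.218 (human), against 0.137 to 0.170 and 0.151 to 0.166 for the other sources. The labelled sources carried their marker genes. All 5 measured rhesus and all 7 measured human neuron markers were higher in cortex, all 5 and all 6 exocrine markers in pancreas, and all 6 rhesus and 10 of 11 human T cell markers in thymus. In testis, 6 of 6 rhesus and 5 of 7 human Leydig and Sertoli cell markers were higher, and 4 of 6 and 4 of 9 male germ cell markers. PRM1 and ACRV1, genes of late sperm formation, were called higher in testis on neither type, nor were PRM2 and TNP1 on the human design, and PRM1 stood at 3.21 in testis by the rhesus probe set.

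The serpin genes split into a group with strong differences between the 5 sources and a group at or near the floor everywhere, apart from SERPINA1 on the rhesus arrays and SERPINA9 and SERPINB13 on the human arrays, which lay above the floor in all 5 sources without a call. On the rhesus arrays, 14 of 26 members were called in at least 1 source (53.8%, against 64.1% of all genes). On the human arrays, 9 of 31 were (29.0%, against 40.5%). At least 1 source lay above the highest unspiked control for 20 of 26 rhesus members (76.9%) and 16 of 31 human members (51.6%), against 83.9% and 70.7% of all genes. The share called was lower in the 2 large clades, at 4 of 10 rhesus and 2 of 10 human members of clade A and 4 of 8 and 1 of 12 of clade B. SERPINE2, SERPINF1, SERPING1, SERPINH1, SERPINI1 and SERPINI2 were called in some source on both array types. These shares were not tested against those of other genes.

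**Figure D1:**
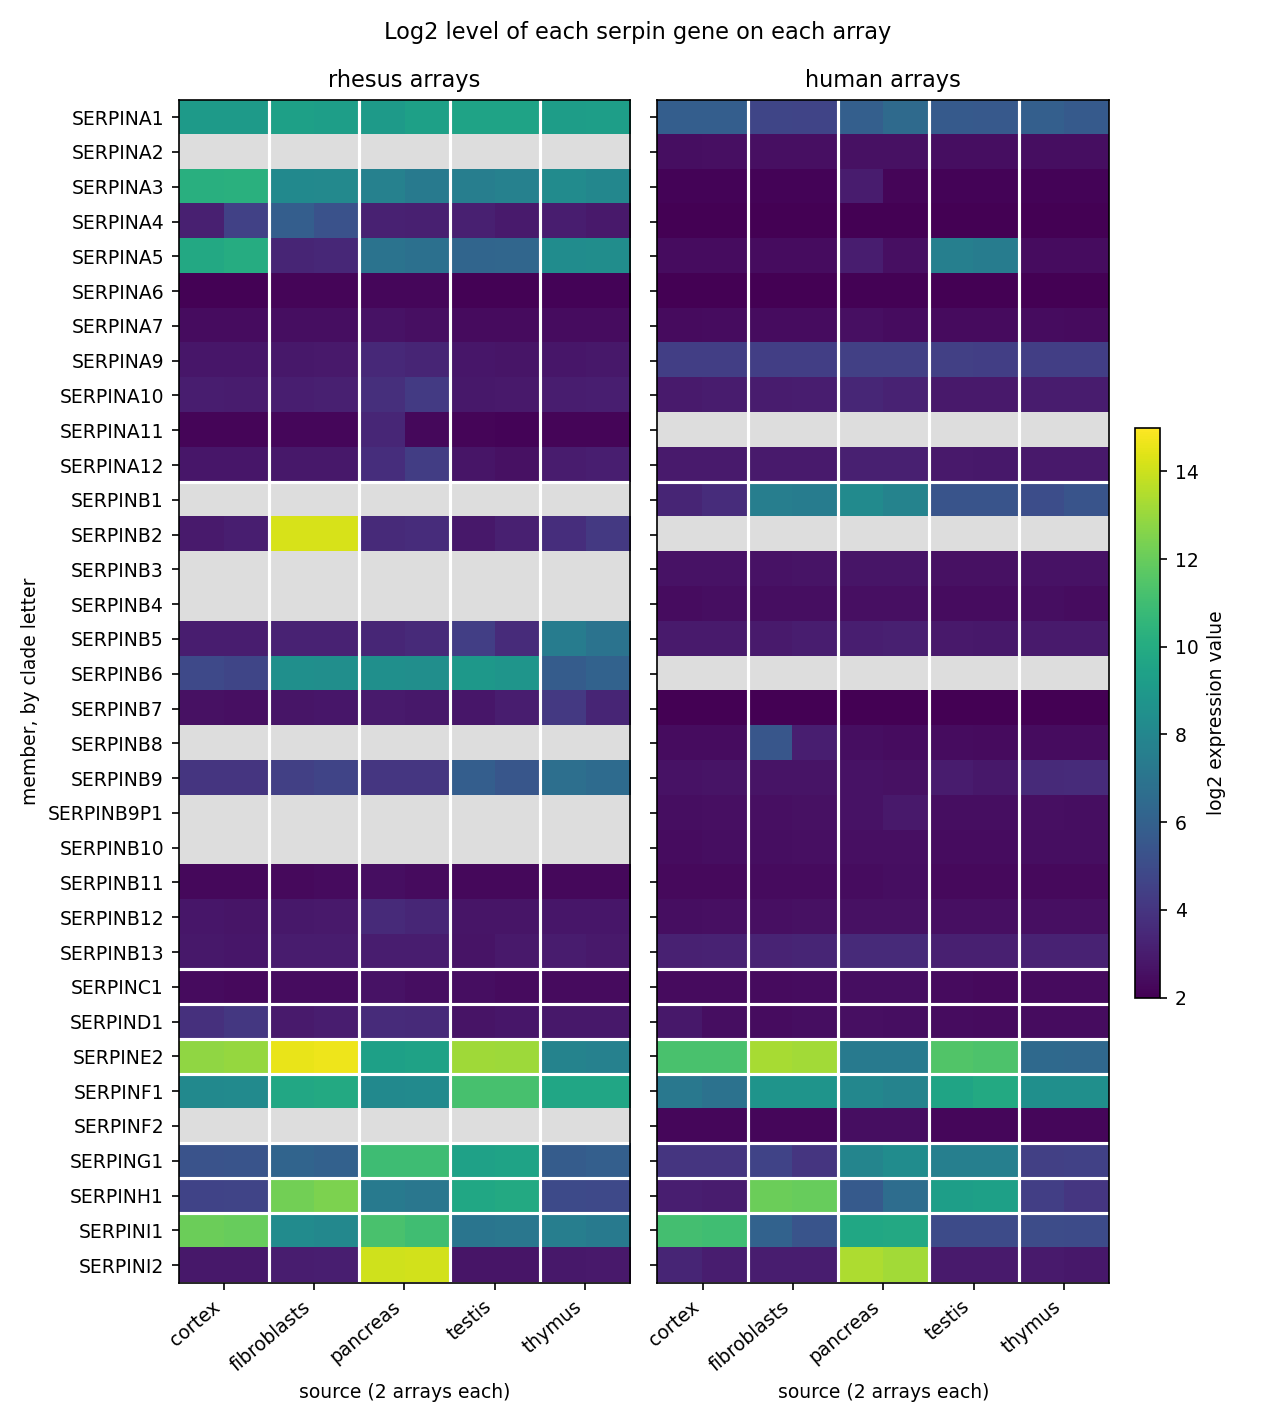
Log2 expression value of each serpin gene (rows, by clade letter) on each rhesus array (left) and human array (right), with 2 arrays per source side by side and grey where a gene is not on that array type. SERPINI2 stands out in pancreas, SERPINB2 and SERPINH1 in fibroblasts and SERPINI1 in cortex and pancreas, while most rows of clades A and B stay dark.

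Cortex had 4 higher and 8 lower members by the rhesus arrays, where 16.6% of all genes were called higher and 21.1% lower, and 2 higher and 6 lower by the human arrays (11% and 9.99% of all genes). In fibroblasts, 5 rhesus members were higher and 5 lower (18.0% and 14.9%), and 3 and 5 human members (11.3% and 8.10%). Pancreas had 5 higher and 5 lower rhesus members (9.81% and 23.8%), and 4 and 2 human members (5.01% and 15.7%). For testis the rhesus counts were 5 higher and 3 lower (16.1% and 11.2%) and the human counts 5 and 2 (8.67% and 5.63%). For thymus the rhesus counts were 3 higher and 7 lower (16.7% and 18.1%) and the human counts 0 and 6 (9.65% and 10.1%). All genes leaned the same way as the members in testis, thymus and, on the rhesus arrays, cortex, and no lean of the members was tested. The median difference over the members ran between -0.20 in cortex and 0.14 in pancreas on the rhesus arrays, against -0.12 and -0.10 for all genes. Medians over all probe sets were 3.53 and 3.48 on the rhesus pancreas arrays, against 3.24 to 3.31 on the other rhesus arrays. Many members lay near the floor, so the 0.14 does not show that serpins lean higher in pancreas. A gene that is very high in 1 source is also called lower in the others, because their reference mean includes that source. Of the lower calls, those of SERPINI2 outside pancreas and of SERPINB2 outside fibroblasts on both or the only array type, and of SERPINA5 outside testis on the human arrays, are of this kind. So are those of SERPINB5 in cortex and fibroblasts on the rhesus arrays, where thymus was high.

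The sharpest pattern belonged to SERPINI2, also called pancpin after the pancreas, where it was first described. The rhesus arrays read 14.05 and 14.10 in pancreas, against 2.84 and 2.83 in cortex, 3.03 and 3.07 in fibroblasts, 2.73 and 2.73 in testis and 2.85 and 2.89 in thymus. The human arrays gave 13.38 and 13.22 in pancreas, against 3.32 and 3.02 in cortex, 3.02 and 3.03 in fibroblasts, 2.94 and 2.93 in testis and 2.96 and 2.84 in thymus. Pancreas stood far above the other 4 sources on both types, and these lay at or near the floor. The difference was 11.21 (SE 0.027, adjusted p = 2.07e-11) on the rhesus arrays and 10.29 (SE 0.083, adjusted p = 2.10e-08) on the human arrays by limma. A list of 40 genes held serine proteases that serpins are known to bind and the cofactor protein S (PROS1). Of these, 7 of 28 measured on the rhesus arrays were higher in pancreas, 4 lower and 17 not called (9.81% of all genes were higher and 23.8% lower, median difference 0.36, against -0.10 for all genes). On the human arrays 8 of 37 were higher, 1 lower and 28 not called (5.01% and 15.7% of all genes, median 0.43, against 0.033). PRSS2, a trypsinogen, read 15.83 and 15.84 in pancreas on the rhesus arrays, against a mean of 3.41 in the other sources, and 15.31 and 15.35 against 2.36 on the human arrays. The proelastase CELA3B differed by 12.55 and 11.93, the chymotrypsin CTRC by 12.56 and 11.33, and CELA3A, measured on the human arrays, by 12.40. Trypsinogens and proelastases have near-identical copies, whose signals the probes may share. In bulk RNA, fewer cells of a type and less RNA per cell cannot be told apart, so these values do not say which cells carried SERPINI2.

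SERPINI1, or neuroserpin, inhibits tissue plasminogen activator and is known chiefly from neurons. It was highest in cortex and second in pancreas on both array types. The rhesus arrays gave 12.084 and 11.996 in cortex and 11.283 and 11.003 in pancreas, against 8.27 and 8.07 in fibroblasts, 7.06 and 7.16 in testis and 7.56 and 7.34 in thymus. SERPINI1 on the human arrays read 11.13 and 11.03 in cortex and 9.74 and 9.85 in pancreas, against 6.10 and 5.35 in fibroblasts, 4.96 and 4.96 in testis and 5.02 and 4.99 in thymus. No array of the other 3 sources reached those of cortex or pancreas on either type. Against the other 4 sources the gene was higher in cortex by 3.57 (SE 0.10, adjusted p = 3.54e-07) on the rhesus and 4.71 (SE 0.18, adjusted p = 5.19e-06) on the human arrays, and in pancreas by 2.45 (SE 0.10, adjusted p = 3.05e-06) and 3.10 (SE 0.18, adjusted p = 3.99e-05), all by limma. Cortex exceeded pancreas by 0.90 on the rhesus arrays, which missed the minimum difference of 1 (adjusted p = 0.00102), and by 1.28 on the human arrays (adjusted p = 0.00495). Pancreas exceeded fibroblasts, the next source, by 2.98 and 4.07. A second rhesus probe set of the gene had the same calls in all 5 sources, with 11.60 in cortex and 10.28 in pancreas. Islet markers were also called higher in pancreas, 2 of 2 rhesus and 4 of 5 human ones, against 9.81% and 5.01% of all genes. Their mean level was 9.78 to 10.34 on the rhesus pancreas arrays and 9.28 to 9.34 on the human pancreas arrays, against 6.03 to 6.11 and 4.62 to 4.63 in cortex and at most 3.72 in the other sources. Their part in the SERPINI1 level of pancreas was not tested.

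**Figure D2:**
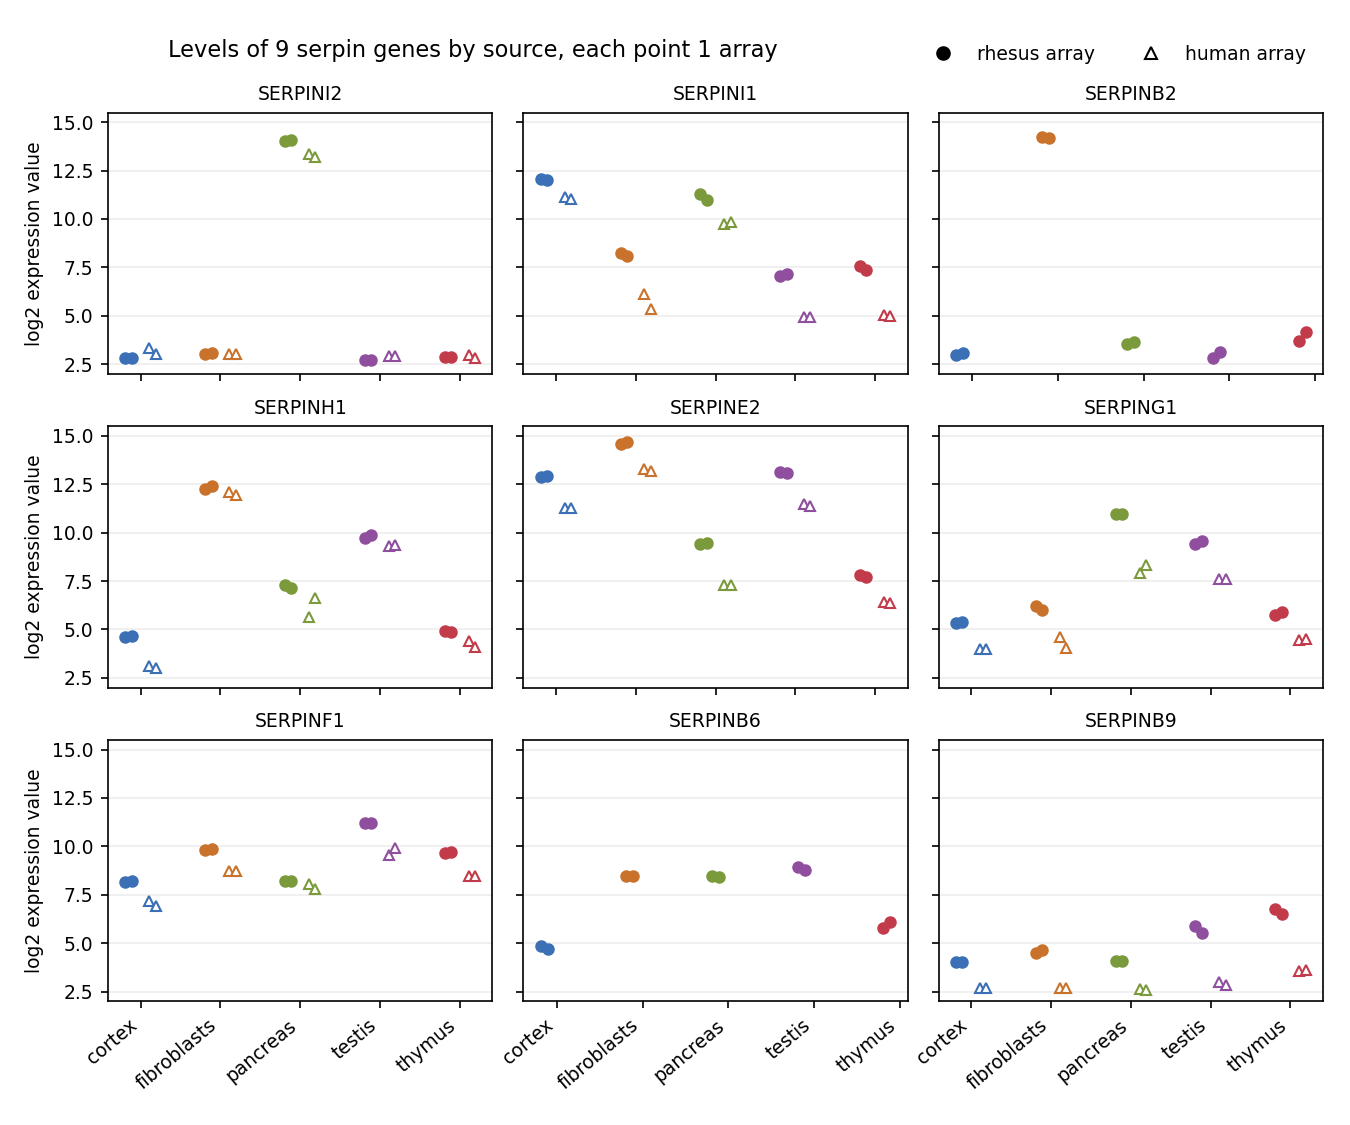
Log2 expression value (vertical axis) of 9 serpin genes in the 5 sources (horizontal axis), with 1 point per array, filled circles for rhesus and open triangles for human arrays. SERPINB2 and SERPINB6 are on the rhesus arrays only, and the 2 arrays of a source lie close together beside the differences between sources.

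SERPINE2 and SERPINB2 act on plasminogen activation, the pathway in which urokinase (PLAU) and tissue plasminogen activator (PLAT) convert plasminogen into plasmin, the protease that dissolves fibrin and helps cells to degrade matrix. SERPINB2 inhibits urokinase. SERPINE2, or protease nexin-1, inhibits thrombin and both plasminogen activators and was first known as a product of fibroblasts and glia. Both genes were highest in the immortalized fibroblasts.

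SERPINB2 read 14.23 and 14.20 in fibroblasts, against 2.95 and 3.07 in cortex, 3.57 and 3.64 in pancreas, 2.82 and 3.14 in testis and 3.68 and 4.16 in thymus on the rhesus arrays. It lay at or little above the floor in every source but fibroblasts. The fibroblasts exceeded the other sources by 10.84 (SE 0.13, adjusted p = 2.73e-08) and thymus, the next source, by 10.30, by limma. Among the other 4, thymus (mean 3.92) and pancreas (mean 3.60) did not differ beyond the spread (adjusted p = 0.14), and pancreas lay 0.59 above cortex (adjusted p = 0.022).

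SERPINE2 was well above the floor in all 5 sources. The rhesus arrays gave 14.58 and 14.69 in fibroblasts, 13.14 and 13.08 in testis and 12.85 and 12.92 in cortex, against 9.40 and 9.49 in pancreas and 7.82 and 7.74 in thymus. The human arrays gave 13.28 and 13.20 in fibroblasts, 11.46 and 11.35 in testis and 11.28 and 11.27 in cortex, against 7.28 and 7.28 in pancreas and 6.44 and 6.38 in thymus. Fibroblasts, testis and cortex formed a high group and pancreas and thymus a low one on both types, with no overlap. Against the other 4 sources, fibroblasts were higher by 3.83 (SE 0.049, adjusted p = 3.05e-08) on the rhesus and 4.15 (SE 0.036, adjusted p = 2.57e-08) on the human arrays, cortex by 1.65 (SE 0.049, adjusted p = 5.20e-07) and 1.69 (SE 0.036, adjusted p = 4.39e-07), and testis by 1.92 (SE 0.049, adjusted p = 5.88e-07) and 1.85 (SE 0.036, adjusted p = 8.81e-07). The cortex call on the human arrays was lost without the pancreas arrays, at 0.92, and with both probe sets of the gene averaged, at 0.77, both under the minimum of 1. Testis exceeded cortex by 0.22 on the rhesus arrays (adjusted p = 0.030), and on the human arrays this difference of 0.13 missed the test (adjusted p = 0.11). The signed difference of thymus was -4.74 and -4.39, and it also lay below pancreas, by 1.67 and 0.87. All 4 rhesus probe sets of SERPINE2 had the same calls in all 5 sources. The second human probe set stayed between 2.67 and 3.28 and was called in none.

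Other genes of plasminogen activation were likewise higher in the fibroblasts. The list holds 10 genes. There, 6 of 8 rhesus and 8 of 9 human measured genes were called higher and 0 lower, with median differences of 2.90 and 2.02, against 0.027 and 0.0023 for all genes. Of all genes, 18.0% and 11.3% were called higher in fibroblasts. PLAT, measured on the human arrays, read 11.18 and 11.21 in fibroblasts, against a mean of 5.28 in the other sources. PLAU read 8.70 and 8.74 against 4.25 on the rhesus arrays and 5.89 and 5.23 against 2.42 on the human arrays. Both activators were highest in fibroblasts, whereas thrombin (F2), the other target of SERPINE2, read 2.33 there on the rhesus arrays, at the floor. ANXA2, a cell-surface receptor for plasminogen, differed by 5.33 and 4.82, and THBS1, a matrix glycoprotein, by 6.39 and 5.31. Plasminogen itself (PLG), made by the liver, read 4.31 and 4.47 and 2.76 and 2.77 in fibroblasts and was not called there. In cortex, 6 of 8 rhesus and 5 of 9 human genes of the list were lower and 0 were higher. The shares of all genes called lower there were 21.1% (rhesus) and 9.99% (human), and those called higher 16.6% and 11%.

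**Figure D3:**
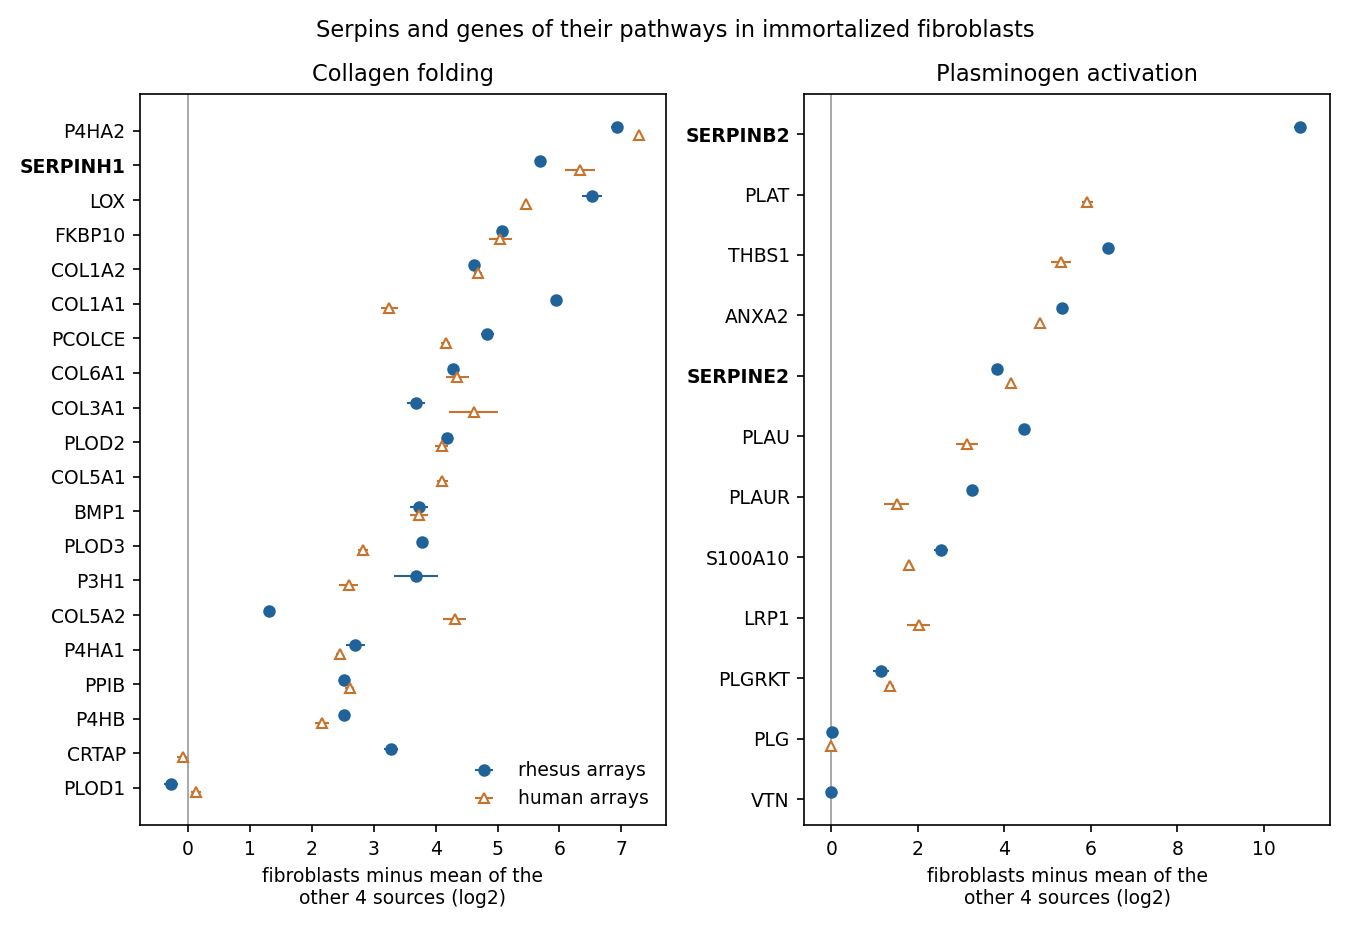
Log2 difference of fibroblasts from the mean of the other 4 sources (horizontal axis, with its SE as bars). The left panel holds the genes of collagen chains and collagen folding with SERPINH1. The right panel holds the plasminogen activation genes with SERPINB2 and SERPINE2. Serpins are in bold, with circles for rhesus and triangles for human arrays. SERPINB2 lies at 10.84, and all but a few genes near 0 lie to the right.

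SERPINH1, or HSP47, is a chaperone of the endoplasmic reticulum that binds procollagen and inhibits no protease. Its rhesus values were 12.25 and 12.41 in fibroblasts, against 4.64 and 4.68 in cortex, 7.30 and 7.15 in pancreas, 9.74 and 9.88 in testis and 4.91 and 4.87 in thymus. The human arrays gave 12.09 and 11.96 in fibroblasts, against 3.09 and 3.01 in cortex, 5.67 and 6.63 in pancreas, 9.29 and 9.38 in testis and 4.40 and 4.08 in thymus. The order was fibroblasts, testis, pancreas, thymus and cortex on both types, without overlap between fibroblasts, testis and pancreas. Fibroblasts were higher than the other 4 sources by 5.69 (SE 0.065, adjusted p = 1.97e-08) on the rhesus and 6.33 (SE 0.24, adjusted p = 7.49e-06) on the human arrays, and testis by 2.53 (SE 0.065, adjusted p = 5.77e-07) and 2.97 (SE 0.24, adjusted p = 2.73e-04), by limma. Thymus and cortex, the lowest sources, differed by 0.23 on the rhesus arrays (adjusted p = 0.065) and by 1.19 on the human arrays (adjusted p = 0.034). The human pancreas arrays were 0.97 apart for this gene. Another rhesus probe set peaked in fibroblasts at 9.37 too, but the last one (MmuSTS.4620.1.S1_at) stayed between 5.91 and 7.42 and was called only in pancreas, where it was lower.

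Genes of collagen chains and genes that fold, modify, process or cross-link collagen were mostly higher in fibroblasts too. The list holds 19 genes, among them the chains COL1A1, COL1A2, COL3A1, COL5A1, COL5A2 and COL6A1. In fibroblasts 17 of 18 rhesus and 17 of 19 human measured genes were called higher and 0 lower, with medians of 3.75 and 4.09. Of all genes, 18.0% and 11.3% were higher there. P4HA2, a subunit of the prolyl hydroxylase that lets the triple helix form, read 12.92 and 13.06 in fibroblasts, against 6.07 elsewhere, on the rhesus arrays, and 13.27 and 13.20 against 5.94 on the human arrays. LOX, which cross-links collagen, differed by 6.53 and 5.46, and FKBP10, a prolyl isomerase of the endoplasmic reticulum, by 5.07 and 5.04. In testis, 6 of 18 rhesus genes of the list were higher and 2 lower (median 0.19), against 16.1% and 11.2% of all genes. On the human arrays 6 of 19 genes were higher and 1 lower (median -0.0091), against 8.67% and 5.63%. The largest differences in testis belonged to collagen chains. Among them were COL1A1 and COL1A2, the chains of type I collagen, higher by 3.66 and 2.93 on the rhesus arrays. Cortex, lowest for SERPINH1, had 16 lower and 0 higher genes on each type, where 21.1% (rhesus) and 9.99% (human) of all genes were lower. Rhesus COL1A1 read 2.31 and 2.29 in cortex, against an average of 10.87 elsewhere.

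SERPINF1, or pigment epithelium-derived factor, is a secreted serpin without inhibitory activity that binds collagen and limits vessel growth. The rhesus arrays gave 11.22 and 11.19 in testis, against 8.15 and 8.22 in cortex, 9.81 and 9.88 in fibroblasts, 8.19 and 8.23 in pancreas and 9.67 and 9.68 in thymus. Its human values were 9.57 and 9.91 in testis, against 7.19 and 6.90 in cortex, 8.75 and 8.74 in fibroblasts, 8.04 and 7.81 in pancreas and 8.47 and 8.47 in thymus. Testis was highest and cortex lowest on both types, and every source stayed well above the floor. Testis was higher by 2.22 (SE 0.032, adjusted p = 7.63e-08) on the rhesus and 1.69 (SE 0.12, adjusted p = 1.36e-04) on the human arrays, and the signed difference of cortex was -1.55 and -1.68, called on both. Pancreas (mean 8.21) and cortex (mean 8.19) did not differ by the test on the rhesus arrays (0.02, adjusted p = 0.66), whereas on the human arrays pancreas lay 0.88 higher (adjusted p = 0.0043). SERPINF2, the plasmin inhibitor alpha-2-antiplasmin, was at the floor on the human arrays, with source means between 2.22 and 2.50.

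SERPING1 encodes C1 inhibitor, which blocks the complement proteases C1r and C1s and plasma kallikrein. It was highest in pancreas and second in testis. The rhesus arrays gave 10.95 and 10.96 in pancreas and 9.42 and 9.55 in testis, against 5.31 and 5.38 in cortex, 6.19 and 6.02 in fibroblasts and 5.77 and 5.92 in thymus. The human values were 7.93 and 8.34 in pancreas and 7.59 and 7.60 in testis, against 4.01 and 4.02 in cortex, 4.59 and 4.03 in fibroblasts and 4.45 and 4.53 in thymus. Pancreas and testis lay above all arrays of the other 3 sources on both types. Pancreas was higher than the other sources by 4.26 (SE 0.065, adjusted p = 7.11e-08) on the rhesus and 3.03 (SE 0.16, adjusted p = 3.18e-05) on the human arrays, and testis by 2.42 (SE 0.065, adjusted p = 7.21e-07) and 2.36 (SE 0.16, adjusted p = 1.38e-04). Pancreas exceeded testis by 1.47 on the rhesus arrays (adjusted p = 1.6e-05), and on the human arrays this difference of 0.54 missed the test (adjusted p = 0.063). Its target C1S was highest elsewhere, at 10.48 and 10.41 in fibroblasts and 10.61 and 10.61 in testis on the rhesus arrays, against 8.20 and 8.05 in pancreas, where it was not called. Endothelial markers were higher in pancreas for 4 of 6 rhesus and 2 of 7 human genes, against 9.81% and 5.01% of all genes. Their mean level was 5.80 to 6.02 in rhesus pancreas arrays and 4.87 to 4.94 in testis, against at most 4.77 in the other sources, and their part in the SERPING1 levels was not tested.

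Members of clade B protect cells from proteases that reach the cytosol, among them granule proteases of leukocytes. SERPINB6, which inhibits cathepsin G and trypsin-like proteases, read 8.48 and 8.45 in fibroblasts, 8.46 and 8.44 in pancreas and 8.94 and 8.80 in testis, against 4.85 and 4.72 in cortex and 5.78 and 6.10 in thymus on the rhesus arrays. Fibroblasts, pancreas and testis formed a high group and thymus and cortex a low one. Against the other 4 sources, testis was higher by 1.96 (SE 0.087, adjusted p = 5.71e-06), fibroblasts by 1.45 (SE 0.087, adjusted p = 1.82e-05) and pancreas by 1.43 (SE 0.087, adjusted p = 1.95e-05), by limma, and the signed difference of cortex was -3.15. Fibroblasts and pancreas did not differ beyond the spread (0.02, adjusted p = 0.92). SERPINB1, the inhibitor of neutrophil elastase and cathepsin G, was measured on the human arrays and is named here after its values were seen. Its means were 8.02 in pancreas, 7.52 in fibroblasts, 5.35 in testis, 5.23 in thymus and 3.50 in cortex. Pancreas and fibroblasts were called higher (2.62 and 2.00) and cortex lower (-3.03), so both genes had cortex lowest. These SERPINB1 calls came from the brightest of its 4 human probe sets. Another was called only in pancreas (4.88, against 3.35 in fibroblasts and 3.19 in cortex), and the rest in no source. For SERPINB1, testis and thymus did not differ by the test (0.13, adjusted p = 0.76).

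SERPINB9 inhibits granzyme B, the protease with which cytotoxic lymphocytes kill their targets, and so shields the lymphocytes themselves. By the rhesus arrays it read 6.76 and 6.52 in thymus and 5.89 and 5.50 in testis, against 4.01 and 4.01 in cortex, 4.48 and 4.67 in fibroblasts and 4.06 and 4.05 in pancreas. The human arrays gave 3.57 and 3.61 in thymus, against 2.66 and 2.68 in cortex, 2.68 and 2.69 in fibroblasts, 2.66 and 2.61 in pancreas and 2.99 and 2.86 in testis. Thymus was highest on both types by the brightest probe sets, but the human values of the other sources lay at the floor. The other human probe sets did not have thymus highest. One averaged 3.12 in testis against 2.99 in thymus, another 2.83 in pancreas against 2.70 in thymus, and neither was called in any source. Thymus was higher by 2.05 (SE 0.11, adjusted p = 1.06e-05) on the rhesus arrays and by 0.86 (SE 0.035, adjusted p = 1.03e-05) on the human arrays, which is under the minimum of 1 and was not called. Thymus exceeded testis, the next source, by 0.94 and 0.67 (adjusted p = 0.0022 and 0.00014), also under the minimum. Granzyme B itself (GZMB) read 9.91 and 10.03 in thymus on the rhesus arrays, against a mean of 4.73, and 3.97 and 4.90 against 2.66 on the human arrays. Neutrophil elastase (ELANE), a target of SERPINB1, was higher in thymus by 6.52 and 3.64, and CTSV, a cathepsin of the thymus, by 7.12 and 5.38.

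SERPINB5, or maspin, is made by epithelial cells and lacks inhibitory activity. Rhesus values were 7.47 and 6.96 in thymus, against 3.05 and 3.05 in cortex, 3.23 and 3.26 in fibroblasts, 3.42 and 3.56 in pancreas and 4.43 and 3.61 in testis. The human arrays gave 2.95 and 2.96 in thymus, against 2.92 and 2.96 in cortex, 2.96 and 3.05 in fibroblasts, 3.10 and 3.17 in pancreas and 2.87 and 2.86 in testis. The brightest rhesus probe set thus put thymus apart from all other sources, and no human source mean passed 3.13. The other rhesus probe set averaged 2.98 in thymus, within the 2.90 to 3.42 of the other sources, and was called in none. Thymus was higher by 3.76 (SE 0.22, adjusted p = 1.46e-05) on the rhesus arrays, whereas the human difference was -0.031. Of the markers of stratified and thymic epithelium, 2 of 5 rhesus and 2 of 6 human ones were called higher in thymus and 1 lower on each type. Of all genes, 16.7% and 9.65% were higher there and 18.1% and 10.1% lower. The higher markers were TP63 (7.15 in thymus, against 3.18) and PSMB11 (6.54 against 2.27) on the rhesus arrays and KRT14 and KRT15 on the human arrays. EPCAM was lower on both, and FOXN1 and IVL were at the floor. The mean of the list was 4.62 to 4.69 in rhesus thymus arrays, against at most 4.31 in the other sources, and its part in the SERPINB5 level was not tested.

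In testis, second to thymus for SERPINB5 and SERPINB9 on the rhesus arrays, 2 of 6 T cell markers were called higher and 2 lower, with a median difference of 0.08. Neither serpin was called there, at -0.23 for SERPINB5, for which testis did not differ from pancreas by the test (adjusted p = 0.13), and 0.88 for SERPINB9. Of the higher markers, CD1B averaged 8.45 and DNTT 7.88 in testis, against 13.97 and 12.98 in thymus. The mean of the T cell list was 5.68 to 5.69 in testis, 11.66 to 11.74 in thymus and at most 3.80 in the other sources. On the human arrays 0 of 11 T cell markers were called higher and 3 lower in testis, with a list mean of 3.74 to 3.85. Of all genes, 16.1% (rhesus) and 8.67% (human) were called higher in testis and 11.2% and 5.63% lower. The part of T cell RNA in the serpin levels of testis was not tested.

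SERPINA5, protein C inhibitor, inhibits activated protein C, urokinase and kallikreins and is known from the male reproductive tract as well as from the liver. The array types gave opposite pictures of it. The rhesus arrays read 9.86 and 10.05 in cortex and 8.33 and 8.39 in thymus, against 3.36 and 3.43 in fibroblasts, 6.96 and 6.82 in pancreas and 6.21 and 6.27 in testis. The human arrays read 7.64 and 7.44 in testis, against 2.42 and 2.43 in cortex, 2.42 and 2.44 in fibroblasts, 3.04 and 2.51 in pancreas and 2.42 and 2.41 in thymus. On the rhesus arrays cortex and thymus were highest and fibroblasts near the floor, and on the human arrays testis alone lay above the floor. By limma, cortex differed by 3.73 (SE 0.062, adjusted p = 3.74e-08) on the rhesus arrays and by -1.36 (SE 0.13, adjusted p = 3.99e-04) on the human arrays, thymus by 1.74 (SE 0.062, adjusted p = 1.43e-06) and -1.37 (SE 0.13, adjusted p = 4.15e-04), and testis by -0.91 (SE 0.062, adjusted p = 4.11e-05) and 5.02 (SE 0.13, adjusted p = 2.59e-06). The lower human calls of cortex and thymus stem from the high testis in their reference mean, since both lay at the floor with fibroblasts.

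The rhesus picture depended on the probe set. The brightest rhesus probe set (MmugDNA.13442.1.S1_at) gave the values above. The other averaged 11.01 in testis, against 2.42 in pancreas and 1.92 to 1.97 in the other 3 sources, and so had the same order of testis over the rest as the human probe set. Read from that probe set, which has the larger spread between sources, the differences were 8.94 in testis, -2.38 in cortex and -2.36 in thymus. Testis was then the only source above the floor on both array types. The 2 rhesus probe sets were called in opposite directions in cortex and thymus.

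**Figure D4:**
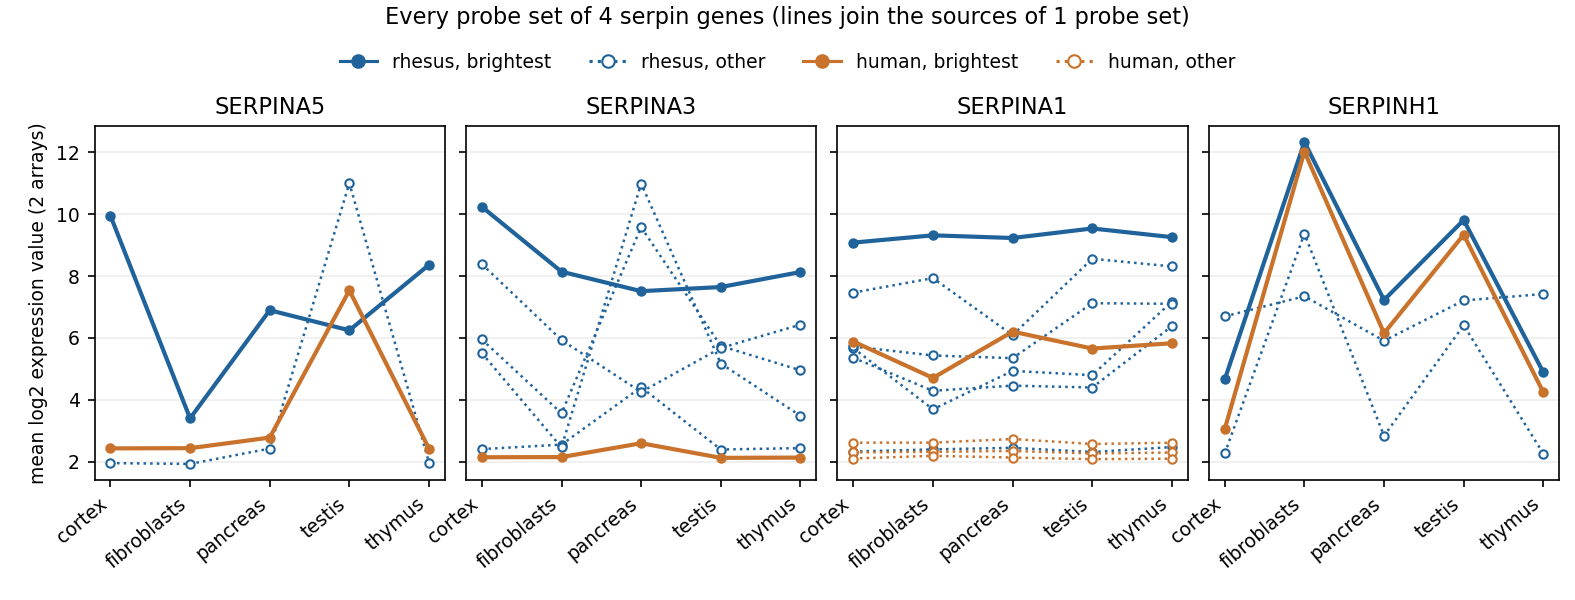
Mean log2 expression value over 2 arrays (vertical axis) of every probe set of SERPINA5, SERPINA3, SERPINA1 and SERPINH1 in the 5 sources (horizontal axis), blue for rhesus and orange for human arrays, solid for the brightest probe set of a type and dotted for the others. The dotted rhesus line of SERPINA5 peaks in testis at 11.01, as the human line does at 7.54, whereas the solid rhesus line peaks in cortex.

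SERPINA3, alpha-1-antichymotrypsin, inhibits cathepsin G and chymotrypsin-like proteases and is made in the liver and by astrocytes. SERPINA3, SERPINA4 and SERPINA12 were singled out after their values were seen. Its brightest rhesus probe set (MmugDNA.42838.1.S1_at) averaged 10.24 in cortex, against 7.51 to 8.14 in the other sources, and cortex was called higher by 2.38. Another was also highest in cortex, at 8.39. But MmuSTS.2150.1.S1_at averaged 10.99 in pancreas, against 5.51 in cortex, and a further probe set gave 9.58 against 5.95. In pancreas 3 of the 5 rhesus probe sets were called higher and 2 lower, and the only human probe set stayed at the floor (2.12 to 2.59). SERPINA3 and SERPINA5 were the only members, among 11 rhesus and 9 human members with several probe sets, whose probe sets were called in opposite directions in a source.

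SERPINA1, alpha-1-antitrypsin, is the main plasma inhibitor of neutrophil elastase. On the rhesus arrays its brightest probe set read 9.08 and 9.08 in cortex, 9.37 and 9.27 in fibroblasts, 9.06 and 9.40 in pancreas, 9.55 and 9.53 in testis and 9.25 and 9.26 in thymus. These sources lay within 0.46 of each other, and no neighbours in their order differed by the test. That does not show that testis and cortex, the ends of the order, were alike. The human arrays gave 4.73 and 4.67 in fibroblasts, against 5.89 and 5.87 in cortex, 5.92 and 6.49 in pancreas, 5.68 and 5.63 in testis and 5.95 and 5.70 in thymus, and fibroblasts were lower, at -1.19 (SE 0.15, adjusted p = 0.00144) by limma. The 6 rhesus probe sets of the gene did not share 1 order of sources, with 3 called higher in thymus and 2 in testis. SERPINA4, or kallistatin, an inhibitor of tissue kallikrein, was called higher in fibroblasts on the rhesus arrays (5.87 and 5.28 in fibroblasts, difference 2.33), but its cortex arrays were 1.33 apart and the human values lay at the floor. SERPINA12, or vaspin, known from fat tissue, was called higher in pancreas on the rhesus arrays at low level (3.68 and 4.34 in pancreas, difference 1.18), against 0.24 on the human arrays. Markers of hepatocytes, the cells that make most clade A serpins, and other plasma protein genes gave few higher calls. In pancreas 1 of 9 rhesus and 2 of 11 human markers were higher (HPX on the rhesus arrays, ALB and TTR on the human arrays), in testis 1 on each type (APOA1), and in thymus 1 on the rhesus type (HP, 8.76), and the share in rhesus pancreas is near the 9.81% of all genes. Lower calls numbered 2 each in cortex, fibroblasts and pancreas and 1 in thymus on the rhesus arrays, and 3 in cortex, 1 in fibroblasts, 2 in testis and 3 in thymus on the human arrays. Fibrinogen genes FGA, FGB and FGG were called in no source.

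SERPINC1 and SERPIND1, plasma inhibitors of thrombin, were near the floor. SERPINC1, antithrombin, read 2.38 and 2.35 in cortex, 2.41 and 2.42 in fibroblasts, 2.63 and 2.49 in pancreas, 2.48 and 2.37 in testis and 2.36 and 2.39 in thymus on the rhesus arrays, and its human source means lay between 2.35 and 2.49. SERPIND1, heparin cofactor II, read 3.80 and 4.08 in cortex and 3.60 and 3.54 in pancreas, against 2.91 and 3.02 in fibroblasts, 2.68 and 2.81 in testis and 2.83 and 2.83 in thymus on the rhesus arrays, with human source means between 2.41 and 2.64. Neither was called in any source, although rhesus SERPIND1 in cortex and pancreas lay above the floor. Their target thrombin (F2) was at the floor too, with means between 2.20 and 2.39 on the rhesus arrays.

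The remaining members gave few values above the floor. On the rhesus arrays SERPINA6, SERPINA7, SERPINA11, SERPINB11, SERPINB13 and SERPINC1 had no source above the highest unspiked control (source means 2.07 to 3.04). SERPINA6 and SERPINA7 carry cortisol and thyroxine in plasma and inhibit nothing. On the human arrays, whose probes were designed for human sequences, 15 members had none (1.85 to 2.76). These were SERPINA2, SERPINA3, SERPINA4, SERPINA6, SERPINA7, SERPINB3, SERPINB4, SERPINB7, SERPINB9P1, SERPINB10, SERPINB11, SERPINB12, SERPINC1, SERPIND1 and SERPINF2. SERPINB3 and SERPINB4, near-identical genes of squamous epithelium, cannot be told apart with certainty by their probes. SERPINA9, SERPINA10, SERPINB7 and SERPINB12 passed that control in some source on the rhesus arrays, with the highest source mean at 3.97 (SERPINA10 in pancreas), and SERPINA9, SERPINA10, SERPINA12 and SERPINB13 on the human arrays, with SERPINA9 at 4.42 to 4.44 in all 5 sources. None of these was called. SERPINB8, which inhibits furin, read 5.48 and 3.10 in fibroblasts and 2.41 to 2.47 on the other human arrays. Its fibroblast arrays were 2.38 apart, the widest gap within a pair of any member, and the difference of 1.85 was not called (adjusted p = 0.0587 by limma).

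Some members that lie side by side in the rhesus genome had different patterns of levels. In the RefSeq table of assembly T2T-MMU8v2.0, used only for gene order, SERPINF2 and SERPINF1 are neighbours on chromosome 16, with SERPINF2 at the floor and SERPINF1 well above it in all 5 sources. SERPINI2 and SERPINI1 lie on chromosome 2 with 2 protein-coding genes between them, and share a high level in pancreas but not in cortex. On chromosome 7, SERPINA4, SERPINA5 and SERPINA3 follow each other without another protein-coding gene, and by their brightest rhesus probe sets the first was highest in fibroblasts and the other two in cortex. SERPINB6 and SERPINB9 are neighbours on chromosome 4, with testis highest for SERPINB6 and thymus for SERPINB9 on the rhesus arrays. SERPINB2 and SERPINB5 lie on chromosome 18 with SERPINB7, SERPINB11, SERPINB13 and SERPINB12 between them. The first was high only in fibroblasts and SERPINB5, by its brightest rhesus probe set, in thymus. The members between were called in no source on either type.

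The array types were compared for the 23 members on both, with limma on 20 arrays at the gene level over 11956 genes, as the difference of a source from the others on the rhesus arrays minus the same on the human arrays. Cortex, fibroblasts and testis had 6 members each called the same way on both, against 20.5%, 18.6% and 13.3% of all genes, pancreas had 4 (16.4%) and thymus 5 (19.4%). SERPINA5 was called in opposite directions in cortex and thymus, and no other member was in any source, against 0.502% and 0.435% of all genes there and 0.460%, 0.560% and 0.201% in fibroblasts, pancreas and testis. The difference between array types itself was called for 4 members in both cortex and fibroblasts, against 20.3% and 16.8% of all genes, for 3 in both pancreas and thymus (21.8% and 17.5%) and for 1 in testis (13.7%). SERPINA5 and SERPINB5 made up 8 of these 15 differences. Those of SERPINB5 outside thymus largely reflect the high rhesus thymus in their reference mean. For SERPINE2, SERPINF1, SERPINH1 and SERPINI2 none was called in any source. SERPINI2 in pancreas differed by 0.92 between types (SE 0.10, adjusted p = 6.64e-06), just under the minimum of 1.

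**Figure D5:**
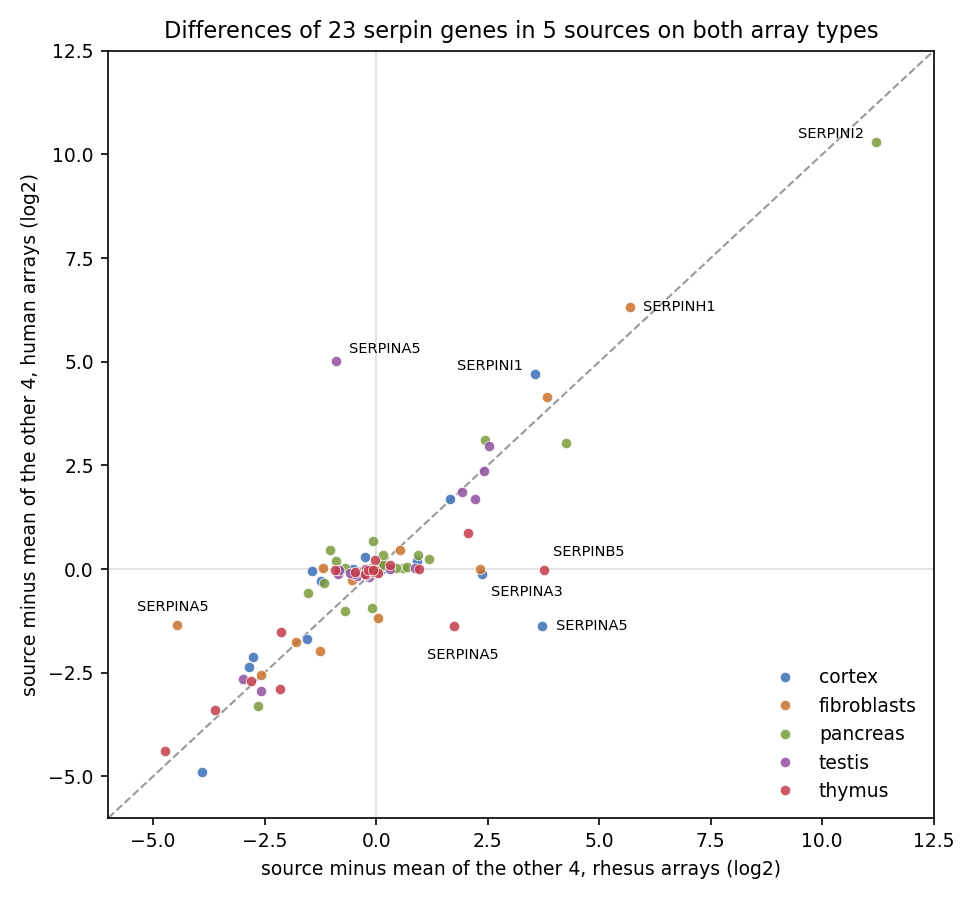
Log2 difference of a source from the mean of the other 4 on the rhesus arrays (horizontal axis) and on the human arrays (vertical axis) for 23 serpin genes in 5 sources, with equal values on the dashed line. SERPINA5 in cortex, fibroblasts, testis and thymus and SERPINB5 in thymus lie farthest from the line, and SERPINI2 in pancreas lies at 11.21 and 10.29.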

How the data were processed

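The authors deposited log2 expression values in a table for each array type, and RMA stands in the submitters' processing notes. Its version and the arrays normalized jointly were not stated in the sources used here. The study itself worked with intensities of single probes, which are another set of values. No column was left out, and no further normalization was applied. The labels gave each sample's source, and its table gave the array type. The design annotation supplied symbols, with 24969 rhesus and 41097 human probe sets paired with 1 symbol.

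Fits used limma 3.58.1 under R 4.3.3, with lmFit and eBayes, each array type by itself, and Benjamini-Hochberg adjustment ran over all probe sets that are not controls. All sources shared 1 estimate of the spread. Neighbouring sources were compared by pairwise contrasts of the same fit. Array types were compared in a fit of all 20 arrays, where a constant offset of a table cancels. The step was tested on simulated data. Values in each array are given for up to 3 members per source with the largest positive difference among those called, for members called in opposite directions and for the highest member of each clade, and up to 4 genes per source are named from each other list. Members, lists and tests were chosen with earlier results of these data known. Alternatives were other normalizations, spiked controls, filters, other choices among a gene's probe sets, ordinary variances, the replicate number as a block and each array left out in turn.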

Additional observations from a re-analysis of the deposited data

Results flagged for a closer look

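The difference between array types was tested as a limma contrast and called for 15 pairs of a serpin gene and a source, each given here as rhesus minus human on the log2 scale. SERPINA5 differed in 4 sources, by 5.09 in cortex (adjusted p = 3.33e-11), 3.11 in thymus (adjusted p = 4.87e-09), -3.11 in fibroblasts (adjusted p = 5.75e-09) and -5.93 in testis (adjusted p = 2.06e-11). These values come from its brightest rhesus probe set, and the other rhesus probe set peaks in testis as the human one does. SERPINB5 also differed in 4 sources, by 3.80 in thymus, -1.40 in cortex, -1.23 in fibroblasts and -1.08 in pancreas, with human source means of 3.13 or less (adjusted p = 0.00183 or lower). The negative values largely reflect the rhesus thymus mean of 7.21 in their reference, since rhesus cortex, fibroblasts and pancreas averaged 3.05, 3.25 and 3.49. These come from the brightest rhesus probe set, and the other was called in no source. SERPINB9 differed by 1.19 in thymus, also with human values at or near the floor.

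SERPINA3 differed by 2.49 in cortex and -1.49 in pancreas, where its rhesus probe sets disagree among themselves and the human one lies at the floor. SERPINA4 differed by 2.32 and SERPINA1 by 1.23 in fibroblasts. SERPINI1 in cortex differed by -1.14 (SE 0.21) and SERPING1 in pancreas by 1.23 (SE 0.18), and both genes were called higher there on both array types.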

How the results depend on the processing

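Alternatives were run for 15 counts of members and 29 differences of named members. Of 233 alternative counts, 225 stayed within 1.5 times the main count. Without a minimum difference, rhesus calls came to 21 in pancreas (14 higher, 7 lower) and 20 in testis (7 and 13), and human calls to 24 in pancreas (19 and 5), 18 in testis (5 and 13) and 10 in thymus (1 and 9). The pancreas counts take in members at the floor, and most members at the floor were highest in pancreas and lowest in testis. Shares of all genes under that rule are not given, so these counts are not read as source differences of the members. With spiked controls subtracted, human pancreas gave 22 calls (4 higher, 18 lower). That scaling moved the median of all genes in pancreas by -1.13 (rhesus) and -1.11 (human) and in fibroblasts by 0.81 and 0.70, and quantile normalization moved rhesus pancreas by 0.42. When probe sets of a gene were averaged, differences between array types were called for 3 members in testis and 5 in thymus. Of 601 alternative values of named differences, 589 kept their direction and their side of the threshold. SERPINA5 on the rhesus arrays reversed to 4.02 in testis and -0.31 in thymus with the mean of its probe sets, and to 8.94 in testis, -2.38 in cortex and -2.36 in thymus with the probe set of largest spread, and its cortex difference fell to 0.67 with the mean. Quantile normalization brought it to -1.30 in testis, which was then called. SERPINE2 in cortex on the human arrays lost its call at 0.77 with the mean of its probe sets and at 0.92 without the pancreas arrays, an alternative chosen after seeing the data, and SERPINB9 in thymus on the human arrays gained one at 1.05 with spiked controls subtracted. The causes were not tested, apart from the disagreement of probe sets. Leaving out each array in turn gave 12 to 13 calls in cortex, 10 in fibroblasts, 9 to 11 in pancreas, 8 to 9 in testis and 10 to 11 in thymus for rhesus arrays. For human arrays these were 8, 8 to 9, 5 to 6, 7 and 6 to 7 in the same order of sources, and no named difference lost its call or direction. The lone array of a source was then assumed to vary like the others. With the replicate number as a block, members had 50 rhesus and 35 human calls, as without it, and 0 changed. Deviations of same-numbered arrays correlated between -0.025 and 0.010 on the rhesus and -0.034 and 0.018 on the human arrays, so no shared deviation was seen. These correlations cannot show whether same-numbered arrays were handled together. With 2 technical arrays per source, precision is limited by their number, and values at the floor have no order.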

Other observations

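Inhibitors of other families had source patterns of their own. SPINK1, the secreted trypsin inhibitor of the pancreas, read 15.27 and 15.28 there on the rhesus arrays, against a mean of 2.86 elsewhere, and 14.41 and 14.40 against 3.06 on the human arrays. The Kunitz-type inhibitors TFPI2 and TFPI were higher in fibroblasts, by 8.57 and 5.31 on the rhesus and 6.78 and 5.16 on the human arrays, and so was elafin (PI3), an elastase inhibitor, by 5.27 and 4.07. The list holds 21 inhibitors, and fibroblasts had 7 of 13 rhesus and 9 of 20 human measured ones higher, with 4 and 3 lower. Of all genes, 18.0% and 11.3% were higher there and 14.9% and 8.10% lower. Stefin A (CSTA), a cytosolic inhibitor of cathepsins, was higher in both thymus (4.88 and 3.93) and fibroblasts (4.27 and 2.81). AMBP, the precursor of bikunin, read 11.09 and 11.12 in testis on the rhesus arrays, against a mean of 3.66, but stayed at the floor on the human arrays.

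Among cathepsins and caspases that serpins bind, 4 of 7 rhesus and 6 of 9 human genes were higher in fibroblasts (18.0% and 11.3% of all genes). Cathepsin K (CTSK) led them, at 7.13 and 7.75. In cortex 6 of 7 rhesus and 6 of 9 human genes of this list were lower (21.1% and 9.99% of all genes). Of the serine proteases, 3 of 28 rhesus genes were higher in cortex and 12 lower, and 1 of 37 human genes higher and 9 lower. KLK7, among the higher ones on both types and a kallikrein-related peptidase, read 10.20 and 10.12 in cortex on the rhesus arrays, against a mean of 5.32, and 7.21 and 7.58 against 3.40 on the human arrays. MASP1, a complement protease that C1 inhibitor blocks, read 12.30 and 12.26 in fibroblasts on the rhesus arrays, against 4.48, while its human values stayed between 3.46 and 3.52 in every source.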
